A study of Mus musculus with 23 samples.

Results

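The genes of the major histocompatibility complex (MHC) and of antigen presentation were followed here by 8 gene symbols, H2-Aa, H2-Ab1, H2-Eb1, Cd74, B2m, H2-K1, H2-D1 and Tap1. The features on the array that list 1 of these symbols numbered 10 of 22575, since H2-K1 has 3 features and every other gene has 1. Of these, 4 features belong to the class II genes and 6 to the class I genes. Liver RNA came from female C57BL/6 mice that had inhaled carbon black (CB, Printex 90, 8 mice), diesel exhaust particles (DEP, the reference material NIST 2975, 7 mice) or filtered air (Air, 8 mice). Both particles were given at 20 mg/m3 for 90 min on 4 consecutive days. The mice were 12 to 13 weeks old by their labels, and livers were taken 90 minutes after the last exposure, whereas the published methods have 10 to 12 weeks and 1 h. Each mouse had its own array, with liver RNA in the Cy5 channel and a universal mouse reference RNA in the Cy3 channel, and the dyes were never exchanged. The question of each comparison was whether inhaled particles altered hepatic gene expression.

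MHC class I molecules show peptides from inside the cell to CD8 T cells. H2-K1 and H2-D1 encode their heavy chains, B2m the shared light chain, and Tap1 a subunit of the transporter that carries peptides into the endoplasmic reticulum. MHC class II molecules show ingested material to CD4 T cells, with alpha and beta chains from genes such as H2-Aa, H2-Ab1 and H2-Eb1 and with the invariant chain Cd74 as their escort. Nearly all nucleated cells carry class I, while class II is known mainly from dendritic cells, B cells and macrophages, which in the liver include the Kupffer cells. In whole liver, fewer cells of a type and less RNA per cell cannot be told apart.

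All members but B2m and Cd74 lie in the MHC on mouse chromosome 17 (GRCm38.p6, RefSeq), with H2-Aa at chr17:34282744-34287823, H2-Eb1 at chr17:34305867-34316674, H2-K1 at chr17:33996012-34000619 and H2-D1 at chr17:35263094-35267497. RefSeq promoter windows of 300 bases, of which 250 precede an annotated start of transcription, were at hand for 6 of the 8 members. H2-K1 has 2 such windows, and the stretch printed for it lies inside the span of the gene given above, since a longer transcript is also annotated. Parts of 4 of them are shown for the control elements known from these genes, which are the X and Y boxes, best known from class II promoters, and the kappa B site of class I promoters. On either strand, the letters CTGATTGG (the Y box) were in the windows of 5 of these 6 members, the class II genes H2-Aa and H2-Eb1 and the class I genes H2-K1, H2-D1 and Tap1, and in 4.10% of all 32851 windows. The letters GNAACNNATG (the core of the X box) were in the window of 1 member, H2-Eb1, and in 2.50% of all windows. The letters GGGGATTCCCC (a kappa B site) were in the windows of H2-K1 and H2-D1, 2 of the 6 members, and in 0.03% of all windows. The letters searched for were themselves cut from members' windows, the Y box from H2-Aa, the X box core from H2-Eb1 and the kappa B site from H2-K1. A match in those windows was thus fixed in advance, and the X box core was in no other member's window. In the stretches below, capitals mark the Y box in H2-Aa, the X box core and then the Y box in H2-Eb1, and the kappa B site in H2-K1 and H2-D1.
H2-Aa, chr17:34287847-34287894, minus strand: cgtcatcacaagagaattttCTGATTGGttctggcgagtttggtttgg
H2-Eb1, chr17:34305756-34305832, plus strand: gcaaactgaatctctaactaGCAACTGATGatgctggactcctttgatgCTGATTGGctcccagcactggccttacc
H2-K1, chr17:34000378-34000478, minus strand: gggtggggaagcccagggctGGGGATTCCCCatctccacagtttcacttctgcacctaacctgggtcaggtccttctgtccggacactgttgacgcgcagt
H2-D1, chr17:35262903-35263003, plus strand: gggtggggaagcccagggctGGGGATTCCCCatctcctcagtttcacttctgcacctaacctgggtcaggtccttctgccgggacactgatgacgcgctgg
The stretches of the 2 class I heavy chain genes were identical at 95 of 101 aligned positions (94.1%). The class I genes are near copies of each other, so a signal read on a feature of H2-K1, H2-D1 or a related gene may hold RNA of its relatives. A match to a motif describes the letters and not a factor bound there.

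The unit of all values below is the log2 ratio of liver to reference after loess within each array, and a log2 fold change is the difference of its group means. Arrays had a median Cy5 signal between 268 and 549 in CB mice, between 312 and 511 in DEP mice and between 262 and 541.5 in Air mice, taken over the 18688 features with a gene symbol. The flags of absent spots covered 20.5% to 40.0% of features in CB mice, 19.2% to 37.4% in DEP mice and 13.8% to 41.9% in Air mice. Precision is limited by the number of arrays. Exposures were run in 3 rounds. The first round held 1 CB, 1 DEP and 2 Air mice, the second 6 CB, 2 DEP and 4 Air mice and the last 1 CB, 4 DEP and 2 Air mice.

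No member feature passed the test in any comparison. By limma, with p-values adjusted over 18688 features, 0 of the 10 member features passed the threshold of 0.05 in any of the 3 comparisons (CB against Air, DEP against Air and CB against DEP), as did 0% of all features in each. The Fs test also called 0 of 10, and of all 18688 features it called 1 after CB, 1 after DEP and 0 for CB against DEP. At an unadjusted p under 0.05 there were again 0 of 10 member features in each comparison, against 5.94% of all features for CB, 4.82% for DEP and 3.44% for CB against DEP. The groups overlapped in all 10 member features, and groups that did not overlap were found in 0.0589% of all features for CB, 0.0107% for DEP and 0.0268% for CB against DEP. The log2 fold change was below 0 in 7 of 10 member features after CB (median −0.08), where 49.8% of all features were below 0. After DEP it was below 0 in 8 of 10 (median −0.09), against 50% of all features, and for CB minus DEP in 7 of 10 (median −0.02), against 50.1%. These counts and medians include H2-K1 feature 3199, which was below 0 in all 3 comparisons. Its Cy5 spots were at the scanner limit on all CB and DEP arrays, so its direction cannot be read.

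**Figure D1:**
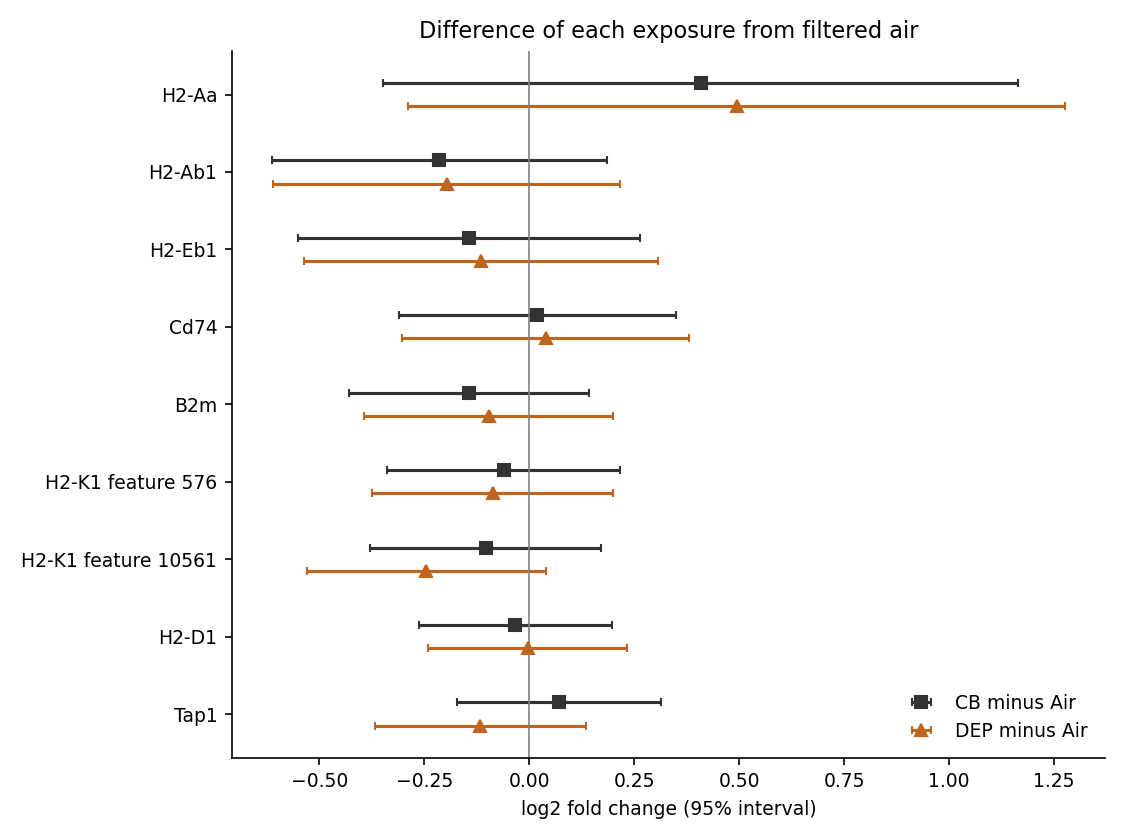
The log2 fold change (x axis) of each member feature (y axis) is plotted for CB minus Air (squares) and DEP minus Air (triangles), with bars for the 95% interval from limma. All intervals cross 0, and the interval of H2-Aa, from −0.35 to 1.16 after CB, is the widest after that exposure. The H2-K1 feature 3199 is left out because its spots were saturated on all CB and DEP arrays.

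H2-Aa encodes the alpha chain of the class II molecule I-A (NM_010378). Its log2 ratio ran between −0.05 and 3.36 with a median of 0.81 in CB mice, between −0.20 and 2.01 with a median of 1.25 in DEP mice and between −0.22 and 1.09 with a median of 0.70 in Air mice. The groups overlapped, but CB mouse 835052 (3.36) and 4 of 7 DEP mice lay above the highest Air mouse. H2-Aa averaged 0.95 ± 1.07 in CB mice (SD, n = 8), 1.03 ± 0.78 in DEP mice (SD, n = 7) and 0.54 ± 0.47 in Air mice (SD, n = 8). The log2 fold change was 0.41 after CB (standard error 0.37, adjusted p = 0.914 by limma) and 0.49 after DEP (standard error 0.38, adjusted p = 0.997), both within the spread between mice. Without CB mouse 835052 the value after CB was 0.06. The value after DEP was −0.03 in mice of the second round and 1.26 in those of the last. With the array set, inferred from consecutive array numbers in the labels, as a block it was 0.91, and with the Cy5 signal alone 1.18. It did not pass the threshold in the second round, with this block or with the Cy5 signal alone.

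The signal of H2-Aa in CB mouse 835052 stood apart in both channels. The Cy5 signal was 14407 in this mouse, against 135.5 to 505 in the other CB mice. The Cy3 signal, which reads the reference RNA given to every array, was 1447 on the same array, against 105 to 226 in the other CB mice. Among DEP mice the feature was also bright in both channels in mouse 835435 (Cy5 2028.5 and Cy3 429), in mouse 835434 (1715 and 579) and in mouse 56 (838.5 and 359). In Air mice Cy5 ran between 151 and 500.5 and Cy3 between 103 and 205.5. The partner genes of H2-Aa were not high in CB mouse 835052, where H2-Ab1 had a log2 ratio of 0.61, H2-Eb1 1.36 and Cd74 −0.19, each inside the range of the other CB mice. The part of the reference channel in the H2-Aa values was not tested. The feature was flagged absent in Cy5 on 2 CB, 2 DEP and 3 Air arrays, and in Cy3 on 6, 3 and 6.

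**Figure D2:**
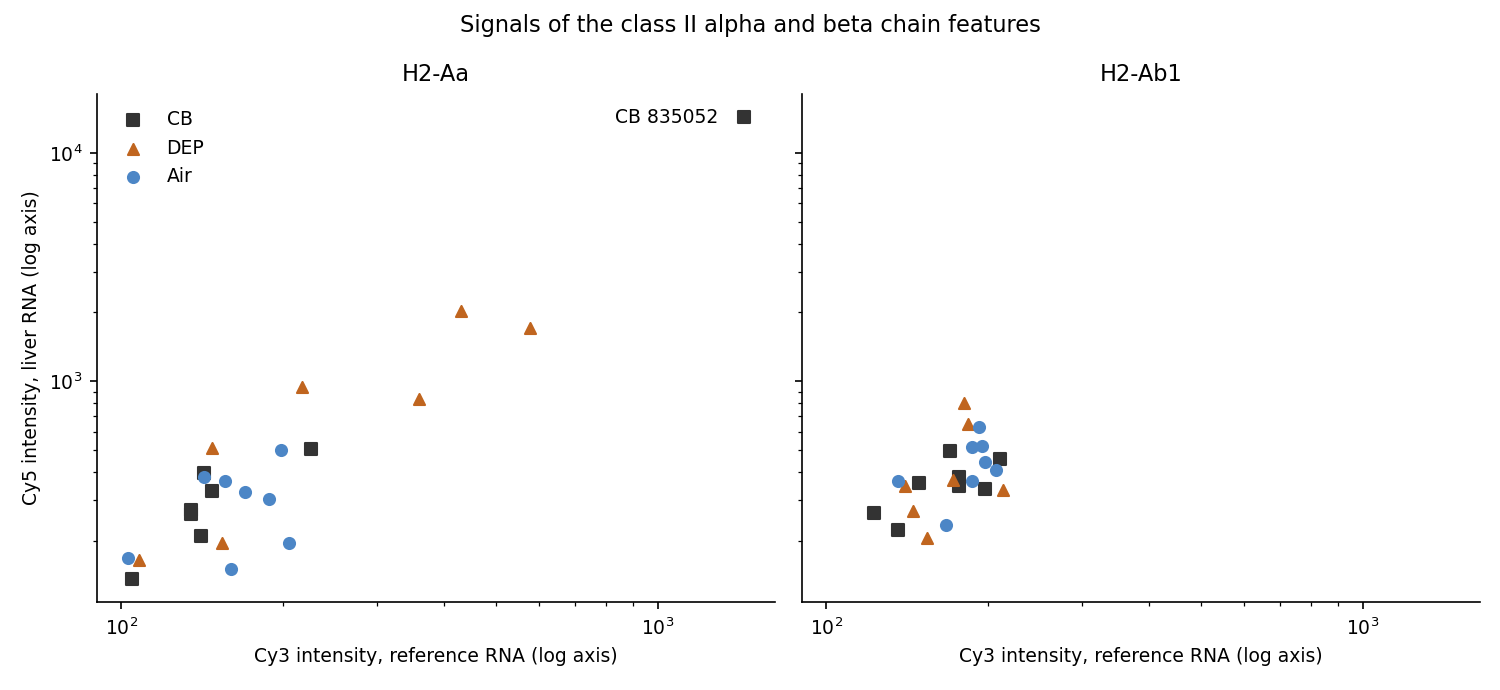
Each point is 1 mouse, with the Cy3 signal of the reference RNA on the x axis and the Cy5 signal of the liver RNA on the y axis (log axes), for H2-Aa (left) and H2-Ab1 (right). The H2-Aa spots of CB mouse 835052 and of DEP mice 835435, 835434 and 56 are bright in both channels, while the H2-Ab1 spots of all mice lie between 205 and 802 in Cy5.

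H2-Ab1 encodes the beta chain of I-A (NM_207105). Its log2 ratio had a lowest, median and highest value of 0.32, 0.70 and 1.09 in CB mice, of 0.10, 0.61 and 1.62 in DEP mice and of 0.13, 0.96 and 1.5 in Air mice. CB mice lay inside the range of Air mice and DEP mice reached slightly past both of its ends, with DEP mice 51 and 57 and Air mouse 50 highest. The means were 0.72 ± 0.22 in CB mice (SD, n = 8), 0.74 ± 0.58 in DEP mice (SD, n = 7) and 0.93 ± 0.40 in Air mice (SD, n = 8). For H2-Ab1 the log2 fold change was −0.21 after CB (standard error 0.19, adjusted p = 0.914 by limma) and −0.20 after DEP (standard error 0.20, adjusted p = 0.997). After DEP it was −0.73 in mice of the second round, 0.06 in those of the last and −0.35 with the round as a block. The Cy5 signal of this feature ran between 205 and 802, and it was flagged absent in Cy5 on 1 DEP array. In Cy3, the reference channel, it was flagged absent on 3 CB, 3 DEP and 5 Air arrays.

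H2-Eb1 encodes the beta chain of the second class II molecule, I-E (NM_010382). Its log2 ratio had a lowest, median and highest value of 0.84, 1.12 and 1.56 in CB mice, of 0.59, 0.92 and 2.12 in DEP mice and of 0.93, 1.25 and 2.14 in Air mice. The groups overlapped, and the 3 highest mice were Air mouse 50 and DEP mice 57 and 51, the same 3 as for H2-Ab1. H2-Eb1 had a log2 fold change of −0.14 after CB (standard error 0.20, adjusted p = 0.944 by limma) and of −0.12 after DEP (standard error 0.20, adjusted p = 0.997). In the second round alone it was −0.38 after CB and −0.48 after DEP, while the last round gave 0.26 after DEP.

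Mice of the C57BL/6 strain carry a haplotype in which H2-Ea, the alpha chain partner of H2-Eb1, is known to have no transcript. The H2-Ea feature (NM_010381) nevertheless read a Cy5 signal of 194 to 523 in CB mice, 217 to 320 in DEP mice and 226 to 357 in Air mice. It was not flagged absent on 19 of the 23 arrays, so the flags did not mark this feature as silent. Its log2 fold change was −0.23 after CB (unadjusted p = 0.0313, adjusted p = 0.838 by limma) and −0.14 after DEP (adjusted p = 0.997).

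Cd74 encodes the invariant chain, which fills the groove of class II molecules until they reach the endosome (NM_010545). Its log2 ratio had a lowest, median and highest value of −0.76, −0.29 and 0.08 in CB mice, of −0.70, −0.25 and 0.25 in DEP mice and of −0.84, −0.38 and 0.35 in Air mice. The 3 ranges were nearly the same, and the highest value belonged to Air mouse 50, followed by DEP mice 57 and 51. For Cd74 the log2 fold change was 0.02 after CB, with a 95% interval of −0.31 to 0.35, and 0.04 after DEP, with an interval of −0.30 to 0.38 (adjusted p = 0.993 and 0.997 by limma). The sign of these small values turned under other normalizations, to −0.02 after CB and −0.03 after DEP with the deposited log2 ratios.

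**Figure D3:**
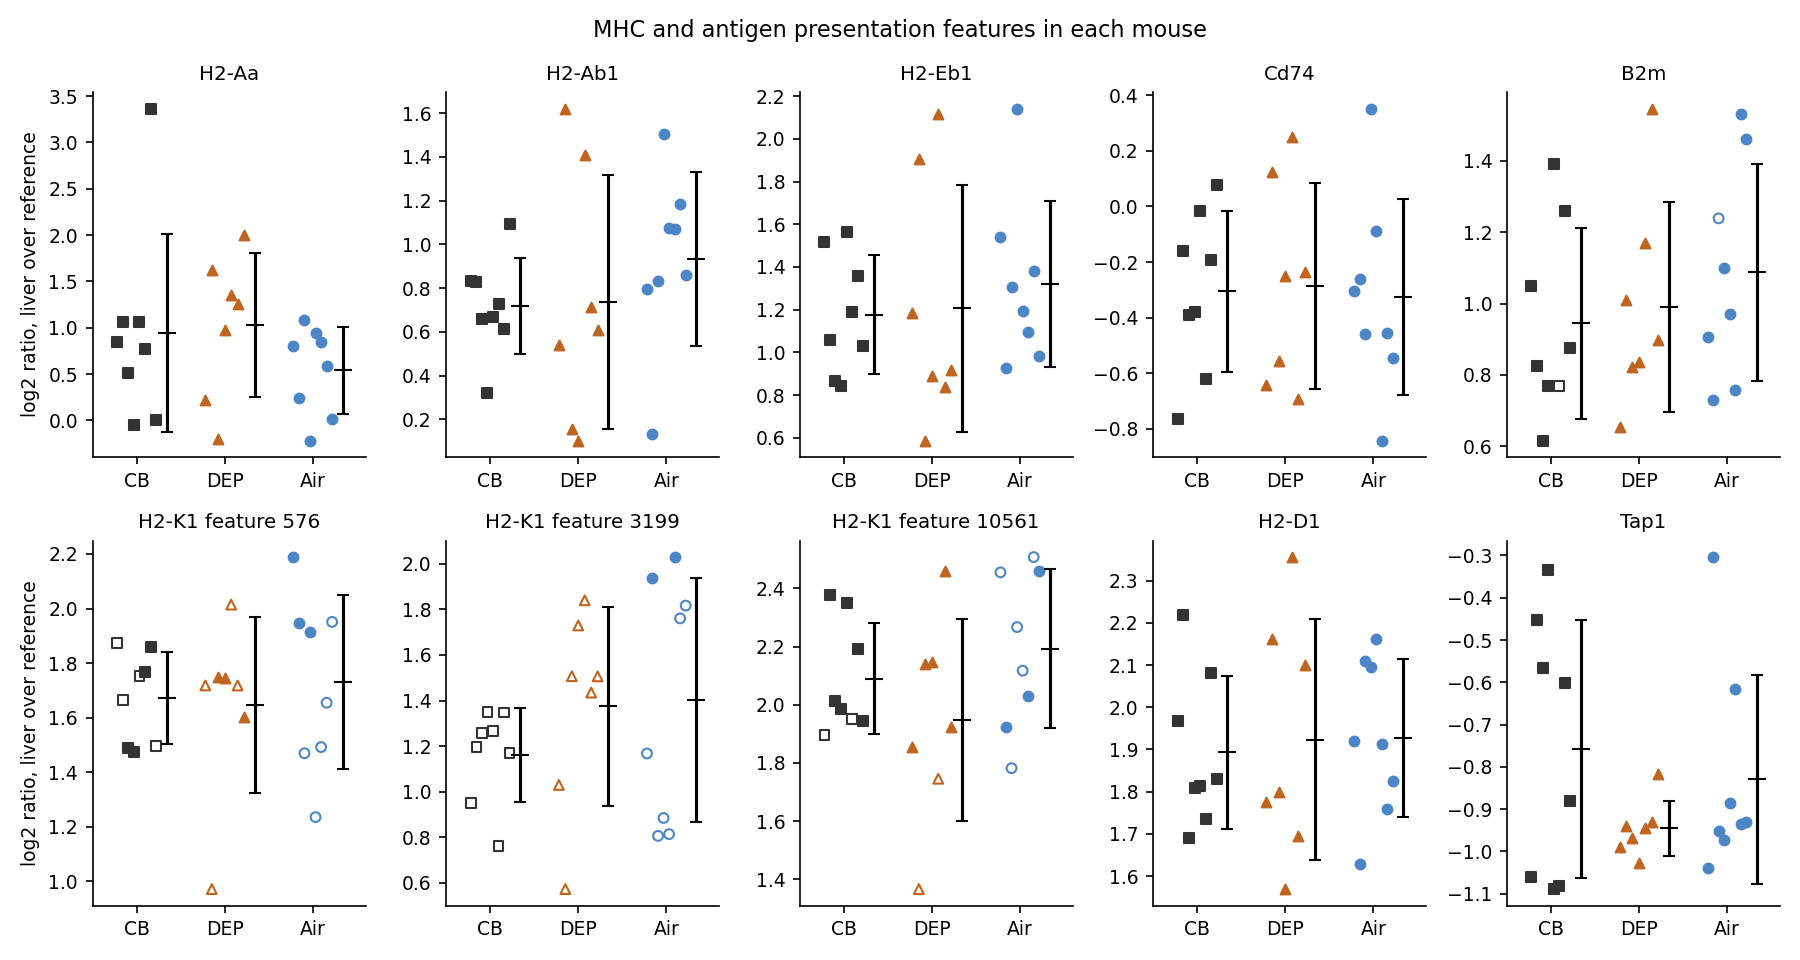
The log2 ratio of liver to reference (y axis) is shown for every mouse in CB, DEP and Air groups (x axis), 1 panel a feature, with the mean and SD beside the points and open symbols for spots at the scanner limit in Cy5. The 3 groups overlap in every panel, CB mouse 835052 stands above the rest for H2-Aa at 3.36, and the lowest symbol for H2-K1 feature 576, DEP mouse 51 at 0.97, is a saturated spot and so a lower limit.

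B2m encodes beta-2-microglobulin (NM_009735). Its log2 ratio had a lowest, median and highest value of 0.62, 0.85 and 1.39 in CB mice, of 0.65, 0.90 and 1.55 in DEP mice and of 0.73, 1.04 and 1.53 in Air mice. The groups overlapped over most of their range, and the 3 highest values were in DEP mouse 835434 and Air mice 835432 and 835433, all of the last round. B2m had a log2 fold change of −0.14 after CB (standard error 0.14, adjusted p = 0.917 by limma) and −0.10 after DEP (standard error 0.14, adjusted p = 0.997). The spot was saturated in Cy5 on 2 arrays, 1 of a CB and 1 of an Air mouse.

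The 3 features of H2-K1 read the gene differently, and the scanner limit of 65535 was reached on each. Feature 3199 (BC080756) was saturated in Cy5 on 21 of 23 arrays, that is on all CB and DEP arrays and on all but 2 Air arrays, so no fold change is given for it. Feature 576, which lists the same accession, was saturated on 4 CB, 4 DEP and 5 Air arrays. Its dimmest spots were 24859 in CB mouse 59, 15203 in DEP mouse 56 and 14806 in Air mouse 50, on arrays where feature 3199 was saturated. Feature 10561 (NM_001001892) was saturated on 2 CB, 2 DEP and 5 Air arrays.

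**Figure D4:**
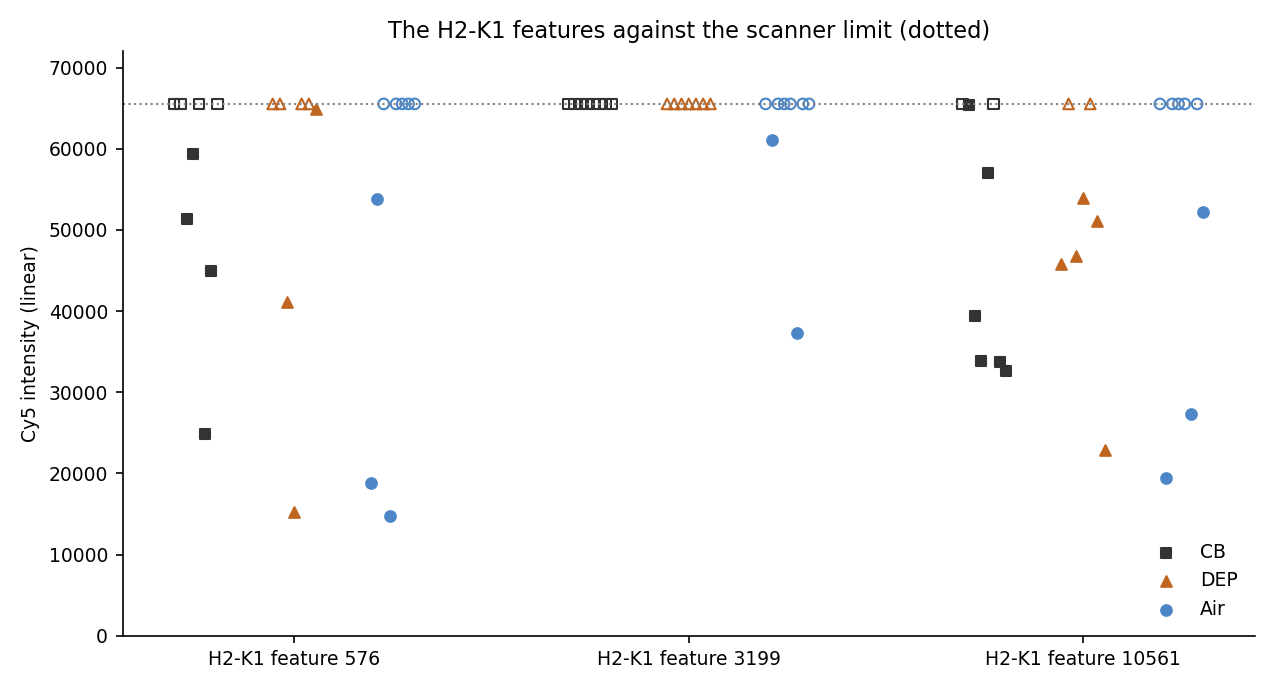
The Cy5 signal (y axis, linear from 0) of the 3 H2-K1 features is shown for each mouse in CB, DEP and Air groups (left to right), with open symbols for spots at the scanner limit of 65535 (dotted line). Feature 3199 is at the limit on 21 of 23 arrays, and feature 576 is as low as 14806 in Air mouse 50.

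On feature 576 the log2 ratio had a lowest, median and highest value of 1.47, 1.71 and 1.87 in CB mice, of 0.97, 1.72 and 2.01 in DEP mice and of 1.24, 1.78 and 2.19 in Air mice. The groups overlapped, and the lowest value, 0.97 in DEP mouse 51, is a lower limit because its Cy5 spot was saturated, so that its place below the other mice cannot be read. Feature 576 had a log2 fold change of −0.06 after CB (standard error 0.13, adjusted p = 0.970 by limma) and −0.09 after DEP (standard error 0.14, adjusted p = 0.997). With the Cy5 signal alone these turned to 0.26 and 0.16. On feature 10561 the lowest, median and highest values were 1.90, 2.0 and 2.38 in CB mice, 1.37, 1.92 and 2.46 in DEP mice and 1.78, 2.19 and 2.51 in Air mice. Of the DEP mice, 1 of 7 lay above the median of the Air mice. The lowest DEP values, 1.37 in mouse 51 and 1.75 in mouse 57, came from saturated Cy5 spots and are lower limits. Of the 8 Air values, 5 are lower limits too. The log2 fold change on feature 10561 was −0.10 after CB (standard error 0.13, adjusted p = 0.938) and −0.25 after DEP (standard error 0.14, adjusted p = 0.997). The unadjusted p after DEP, 0.0880, was the smallest of any member in any comparison. With single mice left out, this value after DEP ran between −0.33 (without DEP mouse 835434) and −0.15 (without DEP mouse 51). Saturated spots set only a lower limit on the liver signal, so their ratios are lower limits wherever they lie in the range. On both features the lowest ratio, in DEP mouse 51, was such a value, while the highest on feature 576, 2.19 in Air mouse 442, was not saturated. The order of the mice and the group means of both features are therefore uncertain.

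H2-D1 encodes the other classical class I heavy chain of this strain (U97660), and its feature was not saturated on any array. Its log2 ratio had a lowest, median and highest value of 1.69, 1.82 and 2.22 in CB mice, of 1.57, 1.80 and 2.36 in DEP mice and of 1.63, 1.92 and 2.16 in Air mice. No group stood apart, and the DEP mice spanned the whole range of both others. For H2-D1 the log2 fold change was −0.03 after CB, with a 95% interval of −0.26 to 0.20, and −0.00 after DEP, with an interval of −0.24 to 0.23 (adjusted p = 0.980 and 0.998 by limma). The sign turned with the deposited log2 ratios, to 0.03 and 0.08.

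Tap1, the transporter subunit (NM_013683), was a dim feature, with a Cy5 signal between 199 and 357.5 and an absent flag on 3 CB and 3 DEP arrays and on 0 Air arrays. The limit of the flag differed by array, from 197 to 301.5 in CB mice, 187 to 283.5 in DEP mice and 154.5 to 231.5 in Air mice. Its flags therefore cannot be compared between groups, and the mean Cy5 signal was 258 in CB, 254 in DEP and 266 in Air mice. The log2 ratio of Tap1 had a lowest, median and highest value of −1.09, −0.74 and −0.33 in CB mice, of −1.03, −0.94 and −0.82 in DEP mice and of −1.04, −0.93 and −0.30 in Air mice. DEP mice lay close together (SD 0.07, n = 7), while CB mice (SD 0.31, n = 8) and Air mice (SD 0.25, n = 8) spread more widely around them. For Tap1 the log2 fold change was 0.07 after CB (standard error 0.12, adjusted p = 0.956 by limma), −0.12 after DEP (standard error 0.12, adjusted p = 0.997) and 0.19 for CB minus DEP (standard error 0.12, adjusted p = 1.000).

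Class II was then set against class I within each mouse, as the mean log2 ratio of H2-Aa, H2-Ab1, H2-Eb1 and Cd74 minus that of B2m, H2-K1, H2-D1 and Tap1, with H2-K1 read by its brightest feature, 3199. Since this feature was saturated in Cy5 on 21 of 23 arrays, its ratio there could move only with the reference channel and the loess curve, and the class I mean includes it. The difference was −0.18 ± 0.28 in CB mice (SD, n = 8), −0.16 ± 0.45 in DEP mice (SD, n = 7) and −0.28 ± 0.34 in Air mice (SD, n = 8). It ran between −0.71 and 0.26 in CB mice, between −0.79 and 0.62 in DEP mice and between −0.74 and 0.17 in Air mice, so the groups overlapped almost completely. Relative to Air, class II minus class I differed by 0.10 after CB (standard error 0.16) and by 0.12 after DEP (standard error 0.21), less than the spread between mice. With the least saturated H2-K1 feature in its place the values were 0.07 after CB and 0.17 after DEP, and without B2m and H2-K1 they were −0.00 and 0.12. Without H2-Aa both values were −0.03. Without DEP mouse 51 the value after DEP was −0.01, and without Air mouse 443 the value after CB was 0.04. Within the second round the values were −0.07 and −0.21, and in the last round, with 1 CB mouse, 0.34 and 0.61.

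Across the 23 mice, with group means removed, the beta chain genes H2-Ab1 and H2-Eb1 varied together. Of 28 pairs of members, adjusted over these 28, this pair had the highest correlation, with Pearson's r = 0.75 (permutation p = 3e-05, adjusted p = 0.00084) and Spearman's rho = 0.61 (permutation p = 0.00245, adjusted p = 0.0454). Without the 2 mice farthest out in H2-Ab1 (DEP 51 and Air 443) r was 0.70. Among the 12 mice of the second round r was 0.60, and among the 7 of the last round it was 0.95. Group means were removed again within a round, so in the last the 1 CB mouse lay at 0 and the 2 Air mice mirrored each other. For every pair, r in the last round thus rests on fewer free values than its 7 mice. Over all 23 mice, r for H2-Ab1 and H2-Eb1 was 0.76 with the deposited log2 ratios and 0.57 with the Cy5 signal alone.

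H2-Eb1 and Cd74 had r = 0.60 (permutation p = 0.00258, adjusted p = 0.0181) and rho = 0.42 (permutation p = 0.0471, adjusted p = 0.146), and without DEP mouse 57 and Air mouse 50 r was 0.34, so the pooled relation rests in part on these mice. Within the second round, which holds Air mouse 50, r was 0.74, and within the last, which holds DEP mouse 57, it was 0.91. With the Cy5 signal alone it was 0.11. H2-Aa and its own beta chain, H2-Ab1, had r = 0.18 (permutation p = 0.418, adjusted p = 0.585) and rho = 0.25 (permutation p = 0.254, adjusted p = 0.374), with r = 0.31 without CB mouse 835052, 0.18 without that mouse and DEP mouse 55, −0.20 in the second round and −0.06 in the last. Over the 6 class II pairs r ran between 0.11 and 0.75, and 2 passed the threshold.

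Of the 3 pairs of class I genes without H2-K1, r ran between −0.39 and 0.14 and 0 passed. The 7 pairs with H2-K1 used its saturated feature 3199 and so say little of its RNA. With feature 10561 in its place, a choice made after seeing the data, 4 of the 28 pairs passed, the same number, and none of these held H2-K1. By that feature, H2-K1 and H2-D1 had r = −0.31 (permutation p adjusted to 0.318) and rho = −0.27, and H2-K1 and B2m had r = 0.42 (permutation p adjusted to 0.153) and rho = 0.33. Between the classes, r ran between −0.40 and 0.64 over 16 pairs, and 2 passed, H2-Ab1 with H2-D1 (r = 0.64, permutation p adjusted to 0.0120) and H2-Eb1 with H2-D1 (r = 0.60, permutation p adjusted to 0.0181). For H2-Ab1 with H2-D1 rho was 0.50 (permutation p adjusted to 0.0798), so this pair passed by r alone, and r was 0.56 without 2 mice, 0.37 in the second round and 0.59 in the last. H2-Eb1 with H2-D1 had rho = 0.59 (permutation p adjusted to 0.0454), and r was 0.45 without 2 mice, 0.29 in the second round and 0.76 in the last. H2-Aa with H2-D1 passed by rho alone, at 0.57 (permutation p adjusted to 0.0454), with r = 0.45 (permutation p adjusted to 0.109). H2-Ab1 and H2-K1, by feature 10561, had r = −0.27 (permutation p adjusted to 0.359) and rho = −0.17. With the deposited log2 ratios 1 of the 28 pairs passed, and with the Cy5 signal alone 0 did.

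**Figure D5:**
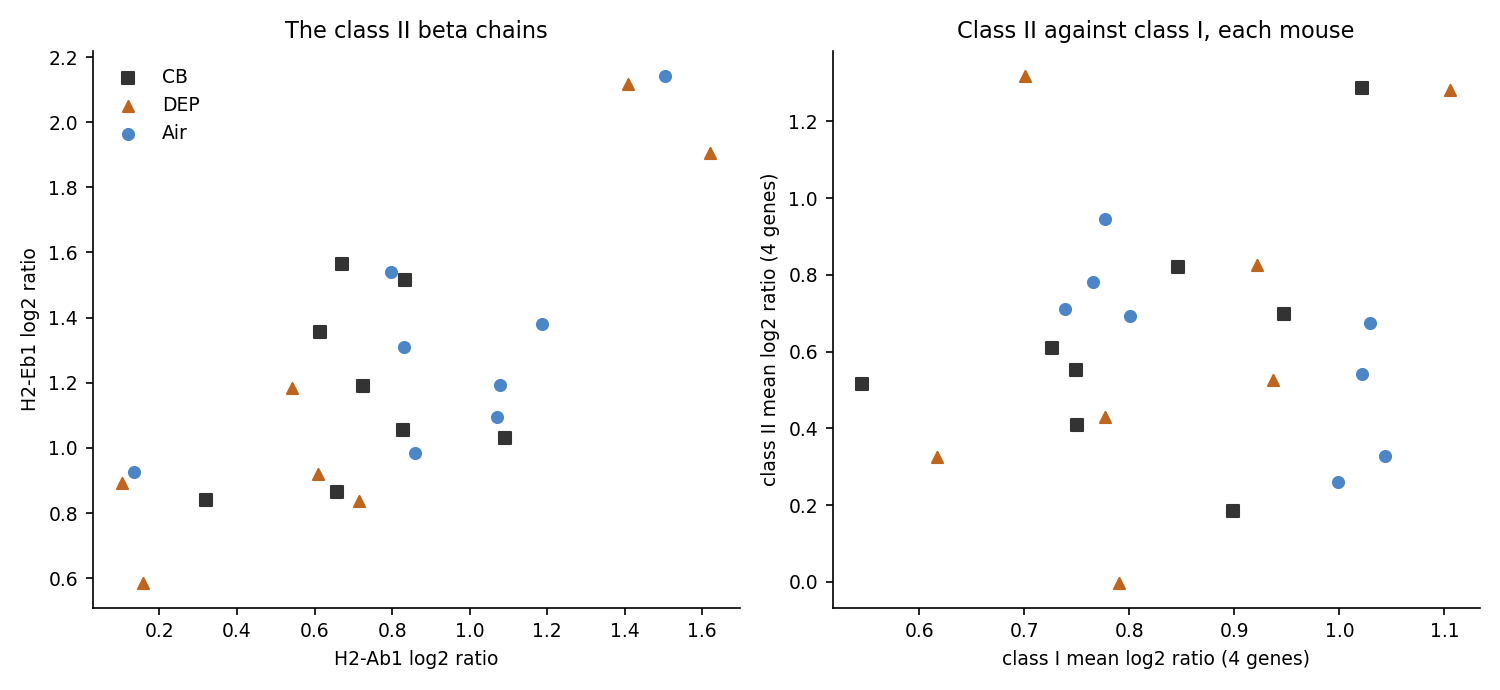
Each point is 1 mouse of the CB, DEP or Air group. Left, the log2 ratio of H2-Ab1 (x axis) against that of H2-Eb1 (y axis), where DEP mice 51 and 57 and Air mouse 50 lie at the upper right; right, the mean log2 ratio of the 4 class I genes, with H2-K1 by its saturated feature (x axis), against that of the 4 class II genes (y axis), where the groups overlap.

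The genes outside the set whose log2 ratio followed the class II mean most closely over the 23 mice, with group means removed, were Zbtb48 (r = 0.85), Slc8b1 (r = 0.80), 3021401C12Rik (r = 0.79), Tmem62 (r = 0.76) and Ptp4a1 (r = 0.75). Those closest to the class I mean, which holds the saturated H2-K1 feature, were 1700001P01Rik (r = 0.76), Tnfrsf18 (r = 0.75), Mical2 (r = 0.74), Mterf2 (r = 0.73) and Bcl2 (r = 0.71). These are the highest values among all features and are given as a description. With H2-Aa left out, a choice made after its values were seen, the class II mean was followed most closely by both features that list Igh, the immunoglobulin heavy chain made by B cells and plasma cells (r = 0.86 and 0.82, BC004786). Cables1 (r = 0.81), Nudt16 (r = 0.81) and D14Ertd436e (r = 0.80) came next. The mean log2 ratio of the B cell markers listed below was lowest in DEP mouse 51 (−0.54) and Air mouse 50 (−0.53), and −0.24 in DEP mouse 57. A link of the class II genes to B cells was not tested.

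The machinery around these molecules showed 0 genes past the threshold in either comparison. For peptide supply and loading of class I, 10 of 12 listed genes were measured. Their log2 fold changes were below 0 in 6 genes for CB (median −0.01) and in 7 for DEP (median −0.07). Over all features 49.8% were below 0 for CB and 50% for DEP. Pdia3, which helps to fold class I heavy chains, had a log2 fold change of 0.26 after DEP (unadjusted p = 0.00291, adjusted p = 0.997 by limma) and 0.02 after CB (adjusted p = 0.979). Psme1, a subunit of the proteasome activator PA28, had −0.16 after CB (adjusted p = 0.873) and −0.19 after DEP (adjusted p = 0.997). For loading and regulation of class II, 12 of 13 genes were measured, and 9 were below 0 after each exposure (median −0.04 after CB and −0.07 after DEP). H2-Oa, which modulates peptide exchange, had −0.20 after CB and −0.06 after DEP (adjusted p = 0.892 and 0.997). Ciita, the master activator of class II transcription, was flagged absent on 13 of 23 arrays and had −0.03 after CB and −0.09 after DEP.

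Of the other class I and class Ib genes, 15 of 21 were measured. After each exposure 11 were below 0, against 49.8% of all features for CB and 50% for DEP. The median log2 fold change was −0.15 after CB and −0.09 after DEP. These values include H2-Q10, saturated in Cy5 on all 23 arrays, H2-T23, saturated on 13, and H2-Q5, saturated on 10. Absent flags covered 12 or more arrays in 3 of the 15. After CB, 3 of the 15 were lower at an unadjusted p under 0.05, against 3.39% of all features, and 0 passed after adjustment. H2-Q7, a class Ib gene of the Q region, had −0.34 after CB (unadjusted p = 0.00943, adjusted p = 0.754 by limma) and −0.19 after DEP (adjusted p = 0.997). H2-Q2 had −0.24 after CB (unadjusted p = 0.0282, adjusted p = 0.835) and −0.17 after DEP (adjusted p = 0.997). The third, H2-M2, named here after its values were seen, had −0.22 after CB (unadjusted p = 0.0361). These features share the doubt about near-identical relatives given above. H2-Q7 and H2-M2 have 10 features each, and the values above come from the brightest. For H2-Q7 that feature was saturated in Cy5 on 2 arrays, and the other features of both genes are not reported here.

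Interferon gamma is the best known inducer of both classes, and 15 of 16 genes of its axis were measured, with medians of 0.03 after CB and 0.00 after DEP. Igtp, an interferon-induced GTPase, had a log2 fold change of −0.32 after CB (unadjusted p = 0.0139, adjusted p = 0.804 by limma) and −0.09 after DEP (adjusted p = 0.997). Irf8, a transcription factor of macrophages and dendritic cells, had −0.02 after CB (adjusted p = 0.989) and −0.23 after DEP (unadjusted p = 0.0338, adjusted p = 0.997).

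Markers of the cells that carry class II were read beside the members, and 0 passed the threshold. The mean log2 ratio of the 10 dendritic cell markers ran between 0.04 and 0.26 in CB mice, between 0.07 and 0.21 in DEP mice and between −0.00 and 0.11 in Air mice, and Clec9a, Cd209a and Siglech were flagged absent on all 23 arrays. Ccr7, a chemokine receptor of migrating dendritic cells, had a log2 fold change of 0.42 after CB and 0.41 after DEP (unadjusted p = 0.0321 and 0.0403, adjusted p = 0.838 and 0.997 by limma), with an absent flag on 10 of 23 arrays. Batf3, a transcription factor of cross-presenting dendritic cells, had 0.03 after CB (adjusted p = 0.985) and 0.30 after DEP (unadjusted p = 0.0429, adjusted p = 0.997). The 7 measured B cell markers averaged −0.34 to −0.10 in CB mice, −0.54 to −0.09 in DEP mice and −0.53 to −0.22 in Air mice, with Cd22 at 0.18 after CB (adjusted p = 0.873) and Cd79b at 0.17 (adjusted p = 0.890). The 10 measured Kupffer cell and macrophage markers averaged 1.99 to 2.65 in CB mice, 1.78 to 3.05 in DEP mice and 2.13 to 2.53 in Air mice, with Cd5l at −0.30 (adjusted p = 0.875) and C1qa at −0.31 (adjusted p = 0.887) after CB. The 8 measured hepatocyte markers averaged 3.91 to 5.16 in CB mice, 4.54 to 5.22 in DEP mice and 4.79 to 5.38 in Air mice. Their log2 fold changes were below 0 in 6 of 8 after CB (median −0.32), against 49.8% of all features. After DEP they were below 0 in 8 of 8 (median −0.25), against 50%. At an unadjusted p under 0.05, 1 was lower after CB (Fgb) and 3 were lower after DEP (Fgb, Alb and Cyp2e1), against 3.39% of all features after CB and 2.53% after DEP, and the lowest adjusted p by limma was 0.621 after CB and 0.753 after DEP. No fold is given for Alb and Fgb, which were saturated on all 23 arrays, but both are within these counts and medians. Their ratios could move only with the reference channel and the loess curve. Apoa1 was saturated on 20 arrays and Cyp2e1 on 19, so the counts for hepatocyte markers say little of liver RNA. The part of any of these cells in the members' values was not tested.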

How the data were processed

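Each of 23 mice contributed liver RNA to 1 oligonucleotide array of 2 colours. Spot intensities of both channels, with no background subtracted, were deposited on a linear scale after the authors had scanned the arrays with a ScanArray Express and quantified the spots in ImaGene. The authors also deposited log2 ratios, normalized by a lowess curve per array (R 2.4.1 in the submitters' processing notes), and absent flags for spots under a limit set by negative controls.

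Here log2 ratios were made anew from the deposited intensities with loess per array in limma 3.58.1 (R 4.3.3), using the 18688 of 22575 features that have a gene symbol and leaving out the other 3887, controls among them. A Cy5 signal of 65535 counted as saturated. The 3 groups entered 1 linear model (lmFit, eBayes), with Benjamini-Hochberg adjustment and a threshold of 0.05, and p-values measure the spread between these mice. Correlations were tested with 100000 permutations, or exactly within rounds of fewer than 10 mice. Of each list discussed above the genes with the 2 smallest p were named, by their brightest feature. For T and NK cell, sinusoidal endothelial, cholangiocyte and pancreatic acinar markers 0 genes passed, and the genes of these lists are not named here. The members and lists were chosen with earlier results of these data known. The tests were checked on simulated data. Alternatives covered the normalization, the background correction, a dim filter (13669 features, with all 10 member features), blocks for round, array set (5) or exposure day (6), single rounds, pairs of groups, array weights, an Fs test with 100 shuffles of residuals, averaged features and the omission of single mice. The array sets were inferred from consecutive array numbers in the labels. Promoter windows are from RefSeq (GRCm38.p6).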

Additional observations from a re-analysis of the deposited data

Results flagged for a closer look

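Among 28 sets of values of a member feature within a group, 2 held a mouse far from the others by Dixon's criterion, and chance gives about 1 in 20. The log2 ratio of H2-Aa in CB mouse 835052 was 3.36, with the next CB mouse at 1.06, and both the liver and the reference channel were bright in that spot. The log2 ratio of H2-K1 feature 576 in DEP mouse 51 was 0.972, with the next DEP mouse at 1.60, but the Cy5 spot of that mouse was saturated, so the value is a lower limit and its distance from the others cannot be read.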

How the results depend on the processing

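No member feature passed the threshold under any alternative, and the lowest adjusted p was 0.114. Of 216 values over 12 alternatives, 193 kept their direction and 23 changed sign, and the cause was not tested. With the deposited log2 ratios, Cd74 was −0.0223 after CB and −0.0266 after DEP, and H2-D1 0.0286 and 0.0807. With median centring, which shifted the median of all features by −0.11 after CB, Cd74 was −0.26 and −0.10, and Tap1 −0.00767 after CB. With the Cy5 signal alone, Cd74 was −0.00889 and Tap1 −0.0736 after CB, and H2-K1 feature 576 was 0.26 after CB and 0.16 after DEP. With the exposure round as a block Cd74 was −0.0104 after DEP, and with the array set as a block H2-D1 was 0.0263 after DEP. Within the second round, after DEP, H2-Aa was −0.0329 and Cd74 −0.13, and H2-K1 feature 10561 was 0.0121 after CB. Within the last round, which holds 1 CB mouse assumed to vary like the other groups, H2-Aa was −0.30 after CB, H2-Ab1 0.0689 after CB and 0.0649 after DEP, H2-Eb1 0.26 and H2-Aa 1.26 after DEP, H2-D1 0.0396 and 0.29, and Tap1 0.0255 after DEP, and class II minus class I was 0.61 after DEP. Of the 28 correlations 4 passed in the loess ratios, 1 with the deposited log2 ratios 4 with the least saturated H2-K1 feature and 0 with the Cy5 signal alone.

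Leaving out each mouse in turn, H2-Eb1 after DEP ran between −0.27 and 0.00183, Cd74 after CB between −0.0543 and 0.12 and after DEP between −0.0497 and 0.14. H2-K1 feature 576 ran between −0.13 and 0.00538 after CB and between −0.16 and 0.0257 after DEP, and H2-D1 between −0.0796 and 0.000518 after CB and between −0.0757 and 0.0554 after DEP. Of the values that kept their sign, H2-Aa ran between 0.06 and 0.55 after CB and between 0.33 and 0.70 after DEP, and H2-Ab1 between −0.33 and −0.13 and between −0.34 and −0.09. H2-Eb1 after CB ran between −0.20 and −0.03, B2m between −0.21 and −0.08 after CB and between −0.19 and −0.03 after DEP, H2-K1 feature 10561 between −0.16 and −0.06 and between −0.33 and −0.15, and Tap1 between 0.01 and 0.15 and between −0.15 and −0.04. Class II minus class I ran between 0.04 and 0.18 after CB and between −0.01 and 0.22 after DEP. Over all features limma called 0 after CB in the loess ratios, against 285 after median centring and 50 in the last round taken alone. For CB against DEP it called 0, against 100 in the last round alone. With 3 of the 4 alternatives added after seeing the data, class II minus class I after CB was −0.03 without H2-Aa, −0.00 without B2m and H2-K1 and 0.07 with the least saturated H2-K1 feature. No paired analysis was possible because the mouse numbers of the groups differ. Saturated spots limit what H2-K1 can show, and dim spots limit what Tap1, H2-Aa and H2-Ab1 can show. H2-Aa was flagged absent on 7 arrays in Cy5 and 15 in Cy3, and H2-Ab1 on 11 in Cy3.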
